A study of Mus musculus with 6 samples.

Results

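The genes described here are 9 genes used to mark the epicardium and the fibroblast lineage of the heart: Wt1, Tbx18, Krt19, Upk3b, Aldh1a2, Tcf21, Meox1, Pdgfra and Dpt. They were chosen by name, and all 9 were found once each among the 54532 genes of the deposited table, of which 22046 are protein coding. RNA was sequenced from whole hearts taken at an age of 4 days. There were 3 hearts labelled Wtap-CKO, a conditional knockout of the gene Wtap, and 3 hearts with the genotype Wtapflox/flox, the floxed allele without the label of a knockout, named Wtap-flox in what follows. The sources used here do not give the Cre driver, and so not the cells in which Wtap was to be deleted. The submitters describe the hearts of a group as independent biological replicates.

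The epicardium is the mesothelial sheet that covers the heart. During development some of its cells lose their epithelial character, enter the muscle wall and become fibroblasts and mural cells of the coronary vessels, and after birth the fibroblasts go on maturing and lay down matrix. WTAP is a regulatory subunit of the methyltransferase that places m6A, or N6-methyladenosine, on mRNA, and it was named as a protein that associates with WT1, the zinc finger factor that marks the epicardium. Wt1 and Tbx18 are not exclusive to that layer, since Wt1 is also found in some cardiac endothelial cells and Tbx18 in pericytes and smooth muscle.

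The deposited unit is FPKM, in which a gene's reads are divided by its length and by a library size. In every library that size was proportional to the median-ratio size factor, which sets libraries level at the median gene, and not to its total reads. The reads recovered from these values numbered 15649028 to 18045599 per library. Wtap itself was at 9.32, 7.75 and 9.46 FPKM in Wtap-CKO hearts, against 7.77, 8.74 and 10.9 FPKM in Wtap-flox hearts (log2 fold change -0.04, adjusted p = 0.893, limma). The values cover the whole gene, so they do not check the labels, and each direction below rests on those labels. Of 12568 genes whose mean over the libraries reached 1 FPKM, 9.91% were higher and 6.69% lower in Wtap-CKO at an adjusted p below 0.05. Their median log2 fold change was 0.00, a value that the median-ratio scaling of the deposited values holds near 0. Of all calls 59.7% were higher, but 33.7% with each library rescaled to the same total (TPM), where the median tested gene stood at -0.16. The cut-off of 1 was kept there although the values became larger, so 15359 genes were tested. The library Wtap-CKO 3 stood apart from the other Wtap-CKO libraries on the second principal component, which held 20.4% of the variance.

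Of the 9 genes, 8 reached that mean and were tested. Krt19 and Meox1 rose and Dpt fell in Wtap-CKO, while Wt1, Tbx18, Aldh1a2, Tcf21 and Pdgfra did not pass the threshold and Upk3b was too low to test. Called higher were 25% of the 8 and called lower 12.5%, against 9.91% and 6.69% of all tested genes. The median log2 fold change of the 8 was 0.25, with a range of -0.78 to 1.35. The groups did not overlap in 5 genes that were higher and in 1 that was lower in Wtap-CKO. Among all tested genes the groups did not overlap in 19.8% (higher) and 17.3% (lower). An exact two-sided permutation test of each gene's FPKM values gave p = 0.1, the smallest that 3 against 3 allows, for the 6 genes without overlap. These separations are those of the deposited scale. Summed FPKM was higher in every Wtap-CKO library, at 357870 to 388328, against 315632 to 339917 in Wtap-flox. With TPM scaling the log2 fold changes of Tbx18, Aldh1a2 and Tcf21 were 0.78, 0.12 and 0.05, and overlap was not examined there. In whole hearts, fewer cells of a type and less RNA per cell cannot be told apart. The plot of FPKM per library shows these values.

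**Figure D1:**
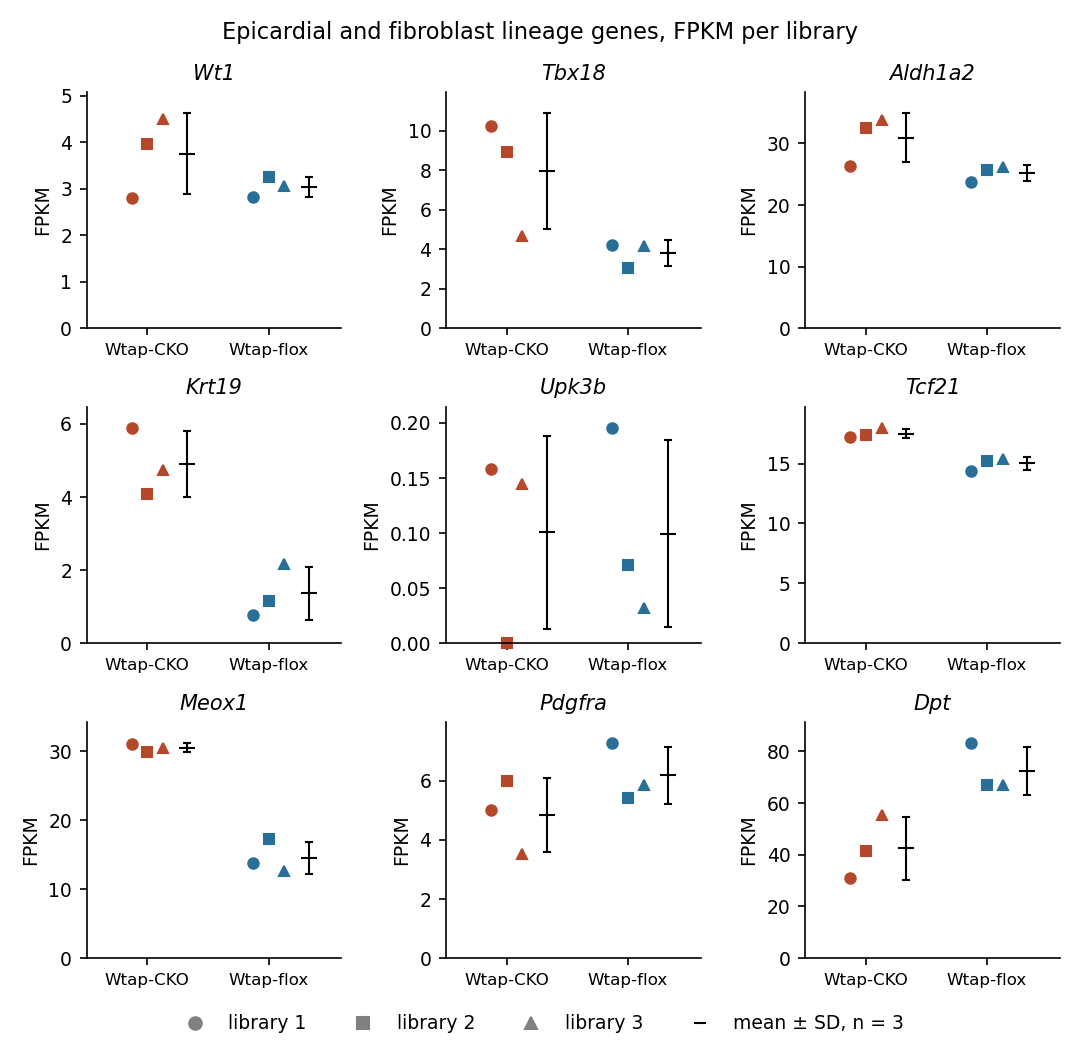
FPKM of the 9 genes in each library, with Wtap-CKO left of Wtap-flox in every panel. Each point is a library, the shape gives its number, and the bar is the mean ± SD (n = 3); Krt19, Meox1 and Dpt do not overlap between the groups, with the Dpt value of Wtap-CKO 3 (55.3) nearest to those of Wtap-flox, while Upk3b stays at or below 0.195 FPKM throughout.

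Among the transcription factors of the epicardium, Wt1 (ENSMUSG00000016458, chromosome 2, 105126529 to 105173616, GRCm38 as for all genes here) was measured at 2.80, 3.96 and 4.496 FPKM in Wtap-CKO hearts. In Wtap-flox hearts it stood at 2.82, 3.25 and 3.05 FPKM. The lowest and the highest of the 6 values were both in Wtap-CKO, and the groups overlapped. Its 95% interval, -0.13 to 0.56, surrounded a log2 fold change of 0.22 (adjusted p = 0.367, limma). Both are on the log2(FPKM + 1) scale, which understates changes at such low levels. On that scale, a rise by more than 0.56 lies outside the interval. Between 280 and 491 reads per library stood behind these values. Its antisense neighbour Wt1os, separated from the start of Wt1 by 18 bases, stayed at or below 0.271 FPKM in every library.

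Tbx18 (chromosome 9, 87702800 to 87731260, minus strand), a T-box repressor of the epicardium, was at 10.3, 8.92 and 4.65 FPKM in Wtap-CKO, against 4.22, 3.03 and 4.16 FPKM in Wtap-flox. All Wtap-CKO values lay above all Wtap-flox values, but Wtap-CKO 3 lay close to them. The log2 fold change was 0.85 with an interval of 0.25 to 1.44 and did not pass (adjusted p = 0.0618, limma). Without Wtap-CKO 3 it was 1.15 and passed (adjusted p = 0.0036). It also passed with array weights (adjusted p = 0.0031), with limma-voom on recovered reads (adjusted p = 0.0429) and when only genes averaging 5 FPKM or more were tested (adjusted p = 0.0439). Under the remaining 15 of 19 alternatives Tbx18 did not pass. Its adjusted p was 0.129 with TPM scaling, 0.14 without a filter and 0.132 to 0.174 without any single library other than Wtap-CKO 3 (limma).

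Aldh1a2 (chromosome 9, 71215789 to 71296243), which encodes the enzyme that makes retinoic acid in the epicardium, was the most abundant epicardial gene. It was at 26.4, 32.5 and 33.8 FPKM in Wtap-CKO and at 23.8, 25.7 and 26.2 FPKM in Wtap-flox. The groups did not overlap, though the lowest Wtap-CKO value exceeded the highest Wtap-flox value only narrowly. The log2 fold change of 0.28 did not pass (interval -0.03 to 0.58, adjusted p = 0.195, limma).

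Among epithelial and surface genes of the mesothelium, Krt19 rose and Upk3b was barely detected. Krt19 (ENSMUSG00000020911, chromosome 11, 100140810 to 100148665, minus strand) encodes a type I keratin. It was at 5.88, 4.08 and 4.74 FPKM in Wtap-CKO hearts and at 0.773, 1.15 and 2.16 FPKM in Wtap-flox hearts. The means were 4.90 ± 0.907 and 1.36 ± 0.717 FPKM (SD, n = 3), a ratio of 3.60, and every Wtap-CKO value lay above every Wtap-flox value. On the log2(FPKM + 1) scale, which understates the change of low genes, the log2 fold change was 1.35 ± 0.216 (SE; adjusted p = 0.00481, limma). Only 0.995% of tested genes had a higher one. The values rested on 176, 117 and 155 reads in Wtap-CKO and on 25, 34 and 71 reads in Wtap-flox. Upk3b, a uroplakin of the mesothelial surface, had 9, 0 and 9 reads in Wtap-CKO and 12, 4 and 2 reads in Wtap-flox, or at most 0.195 FPKM. The count of 0 in Wtap-CKO 2 allows up to 3 reads, or 0.055 FPKM, for counting error only. No difference in Upk3b was detectable at this depth.

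The other listed epicardial and mesothelial genes were also mostly near the floor. Of 16 genes, 6 reached a mean of 1 FPKM, of which 1 rose and 0 fell, with a median of 0.57. The shares were 16.7% and 0%, against 9.91% and 6.69% of all tested genes. The mesothelial marker Msln had 0.469, 0.122 and 0.107 FPKM in Wtap-CKO and 0.326, 0.208 and 0.0801 FPKM in Wtap-flox, and the uroplakin Upk1b was at or below 0.163 FPKM. The epicardial label therefore rests here on Wt1, Tbx18 and Aldh1a2, and not on Upk3b, Msln or Upk1b. Aldh1a1, another retinaldehyde dehydrogenase, rose to 2.53 ± 0.722 FPKM in Wtap-CKO, against 0.751 ± 0.0365 FPKM in Wtap-flox (SD, n = 3; log2 fold change 0.99, adjusted p = 0.00468, limma). It reached the mean of 1 FPKM through its Wtap-CKO values. The simple keratins Krt18 (1.66, adjusted p = 0.0516) and Krt8 (0.77, adjusted p = 0.265) did not pass. Krt18 was at 26.9, 10.6 and 15.9 FPKM in Wtap-CKO and at 2.56, 6.92 and 5.11 FPKM in Wtap-flox, without overlap. Without Wtap-CKO 2, the library lowest in both within its group, Krt18, Krt8 and Aldh1a1 rose, 3 genes in place of 1. Of the others, the membrane glycoprotein gene Gpm6a had 0.38 (adjusted p = 0.0823) and Nkain4 had -0.31 (adjusted p = 0.308).

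In the fibroblast lineage, Meox1 rose, Dpt fell, and Tcf21 and Pdgfra did not pass. Meox1 (ENSMUSG00000001493, chromosome 11, 101877510 to 101894374, minus strand) encodes a homeobox factor that takes part in the activation of cardiac fibroblasts in adult mice. It was at 31.2, 30.0 and 30.6 FPKM in Wtap-CKO hearts, against 13.7, 17.2 and 12.7 FPKM in Wtap-flox hearts. The Wtap-CKO values lay close together and far above those of Wtap-flox. The means were 30.6 ± 0.599 and 14.5 ± 2.38 FPKM (SD, n = 3), with a log2 fold change of 1.03 ± 0.135 (SE; adjusted p = 0.00205, limma). Of tested genes 2.33% had a higher one. The locus overlaps the antisense gene Gm11551 over 4970 bases, which was at 0.604, 4.42 and 0.830 FPKM in Wtap-CKO and at 1.96, 1.54 and 1.24 FPKM in Wtap-flox. Whether the counting used strand is not given in the sources used here.

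Because WTAP acts in the m6A writer, the letters GGACT, a common form of the sequence in which m6A is written, were counted on the sense strand of each gene's canonical transcript (GENCODE vM39). Meox1 had 7 in 2255 bases, or 3.10 per kb, above 98.0% of 21770 protein coding transcripts, whose median was 1.01 per kb and of which 88.8% held at least 1. The other 8 genes had between 0.85 per kb (Upk3b and Tbx18) and 2.43 per kb (Tcf21), and Dpt had 1.121. A match is a string of letters and not a measured methylation site. The Meox1 sites are shown with 10 bases on either side of the match, positions counted from the first base of the transcript, with the matched letters in capitals.
Meox1 base 371, in the 5′ UTR: acctttgaaaGGACTggggcaggca
Meox1 base 617, coding: agcctgccccGGACTgagcgaatct
Meox1 base 1128, coding: gagaggatggGGACTctgcagcttc
Meox1 base 1397, in the 3′ UTR: gaactccaaaGGACTgggaaactat
Meox1 base 1658, in the 3′ UTR: tgatggatgaGGACTgagatacgtg
Meox1 base 1722, in the 3′ UTR: tgttctccaaGGACTctgactgcag
Meox1 base 1887, in the 3′ UTR: gctcctgtgaGGACTggtgggaaaa
Krt19, which also rose, had 1.90 per kb, above 87.2% of transcripts. Among genes that did not pass, Tcf21 lay above 94.5%, Wt1 above 84.7%, Pdgfra above 70.1%, Aldh1a2 above 56.6% and Tbx18 above 40.2%. Dpt, which fell, lay above 57.3%. A link between these letters and the changes was not tested.

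Tcf21 (chromosome 10, 22817281 to 22820174, minus strand) encodes the basic helix-loop-helix factor that epicardial cells need to become fibroblasts. It was at 17.2, 17.4 and 17.9 FPKM in Wtap-CKO and at 14.4, 15.2 and 15.4 FPKM in Wtap-flox. The groups were narrow and did not overlap, with means of 17.5 ± 0.385 and 15.02 ± 0.536 FPKM (SD, n = 3). The log2 fold change of 0.21 had an interval of -0.03 to 0.45 and did not pass (adjusted p = 0.213, limma). The gene lies within the antisense gene Gm10824, which was at or below 1.202 FPKM in every library. Pdgfra (chromosome 5, 75152292 to 75198215), the receptor for PDGF that most cardiac fibroblasts carry, was at 5.00, 6.001 and 3.51 FPKM in Wtap-CKO and at 7.26, 5.43 and 5.87 FPKM in Wtap-flox. The groups overlapped, and the log2 fold change of -0.32 did not pass (interval -0.72 to 0.09, adjusted p = 0.26, limma).

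Dpt (ENSMUSG00000026574, chromosome 1, 164796644 to 164824266) encodes dermatopontin, a small matrix protein that fibroblasts secrete and that binds decorin and assists collagen fibril formation. It was the most abundant of the 9 genes in both groups, at 31.0, 41.4 and 55.3 FPKM in Wtap-CKO hearts and at 83.1, 67.0 and 67.0 FPKM in Wtap-flox hearts. No Wtap-CKO value reached those of Wtap-flox, and Wtap-CKO 3 came closest. The means were 42.6 ± 12.2 and 72.4 ± 9.26 FPKM (SD, n = 3), with a log2 fold change of -0.78 ± 0.208 (SE; adjusted p = 0.0346, limma). The antisense gene Gm32569, which overlaps the locus over 20298 bases, stayed at or below 0.306 FPKM. Without Wtap-CKO 3 the log2 fold change was -0.99 (adjusted p = 0.00931). Leaving out any other library ended the call, with an adjusted p of 0.109 without Wtap-CKO 1, 0.0681 without Wtap-CKO 2, and 0.11, 0.0792 and 0.0714 without Wtap-flox 1, 2 and 3. With every gene above 0 FPKM in any library tested, 27201 genes, the adjusted p was 0.105. With those averaging 0.1 FPKM or more it was 0.0614.

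Promoter windows were available from RefSeq (GRCm38.p6) for 6 of the 9 genes, not for Krt19, Meox1 and Wt1. Sequence is shown for Dpt, the gene that fell, and for Tbx18, whose deposited values were all higher in Wtap-CKO. Each stretch is the 200 bases directly before the gene's start in the deposited file, read on the gene's own strand. For Dpt the window ends 20 bases before the RefSeq start. Capitals mark the matched letters.
Dpt, chr1:164796444-164796643, plus strand: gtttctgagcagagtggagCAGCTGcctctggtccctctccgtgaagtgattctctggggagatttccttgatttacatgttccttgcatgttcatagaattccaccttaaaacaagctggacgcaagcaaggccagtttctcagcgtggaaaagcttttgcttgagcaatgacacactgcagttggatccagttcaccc
Tbx18, chr9:87731261-87731460, minus strand: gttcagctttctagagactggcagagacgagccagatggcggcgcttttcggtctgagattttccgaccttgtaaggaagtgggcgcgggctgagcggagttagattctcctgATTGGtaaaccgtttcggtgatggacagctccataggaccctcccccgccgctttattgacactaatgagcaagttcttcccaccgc
The 250 bases before each RefSeq start were searched on both strands for the TATA box TATAAA, the GC box GGGCGG, the E-box CAGCTG, the T-box letters GGTGTG, the TEAD letters GGAATG, the AP-1 letters TGANTCA and the CCAAT box. Dpt had the E-box letters CAGCTG 200 bases upstream, as did 13.0% of 32851 windows of that length somewhere in the window. Tbx18 had CCAAT on the opposite strand 87 bases upstream and Aldh1a2 had it 36 bases upstream, as did 33.8% of windows. Upk3b had GGAATG, as did 12.6%, and no window of the 6 genes held the other letters. The windows differed in base composition, with 77.6% G and C in Aldh1a2, above 97.7% of windows, against 54.0% in Tbx18 and 48.8% in Dpt, where the median window had 52.4%.

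**Figure D2:**
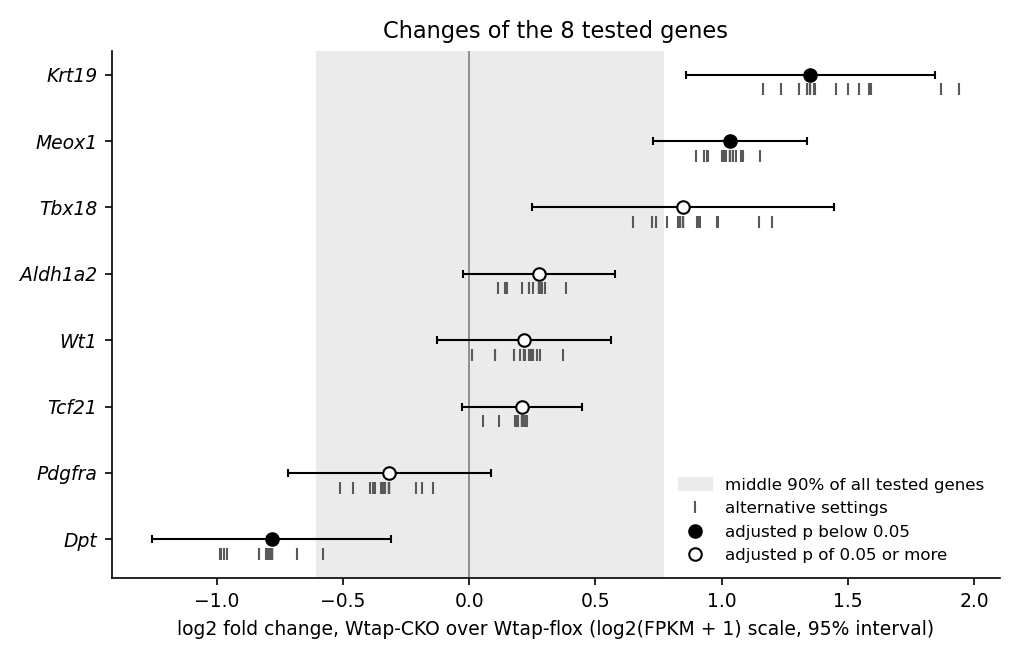
Log2 fold change of the 8 tested genes, Wtap-CKO over Wtap-flox, with 95% intervals, filled where the adjusted p was below 0.05. Ticks under each gene are its values under the alternative settings, and the grey band holds the middle 90% of all 12568 tested genes, from -0.60 to 0.77; the signs of all 8 genes stayed the same under every setting in which they were tested.

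The proportions of the fibroblast lineage genes within a library were also compared. The ratio of Meox1 to Tcf21 in FPKM, which is per length, was 1.81, 1.72 and 1.70 in Wtap-CKO and 0.954, 1.13 and 0.821 in Wtap-flox. The ratio of Dpt to Tcf21 was 1.81, 2.38 and 3.08 in Wtap-CKO and 5.77, 4.41 and 4.35 in Wtap-flox. Dpt over Meox1 was 1.40 ± 0.406 in Wtap-CKO and 5.08 ± 1.09 in Wtap-flox (SD, n = 3). In each of these 3 ratios the groups did not overlap. Krt19 over Wt1 was 1.39 ± 0.610 in Wtap-CKO and 0.446 ± 0.231 in Wtap-flox, also without overlap, whereas Tbx18 over Wt1 overlapped. These 5 ratios were chosen after the values were seen. The exact two-sided permutation test gave p = 0.1, the smallest possible, for the 4 that did not overlap and 0.3 for Tbx18 over Wt1 (0.125 and 0.3 adjusted over the 5). Neither the test nor the adjustment covers that choice, so these p-values only describe the ratios.

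**Figure D3:**
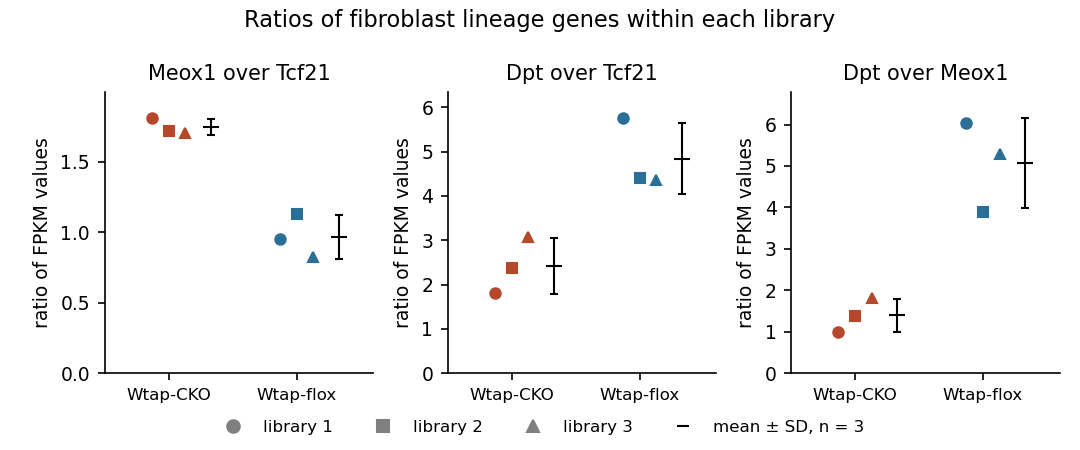
Ratio of FPKM values between fibroblast lineage genes in each library, with Wtap-CKO left of Wtap-flox. Points are libraries, shapes give their number, and bars are the mean ± SD (n = 3); Meox1 over Tcf21 lies at 1.70 or above in Wtap-CKO and at 1.13 or below in Wtap-flox, and Dpt over Meox1 lies lower in every Wtap-CKO library than in every Wtap-flox library.

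The order of levels differed between the groups in the middle of the range. In Wtap-CKO the means ran from Dpt through Aldh1a2, Meox1, Tcf21, Tbx18, Krt19, Pdgfra and Wt1 to Upk3b. Dpt, Aldh1a2 and Meox1 overlapped in neighbouring pairs there, as did the genes from Tbx18 to Wt1. In Wtap-flox the order was Dpt, Aldh1a2, Tcf21, Meox1, Pdgfra, Tbx18, Wt1, Krt19 and Upk3b, with overlap only between Tcf21 and Meox1 and between Tbx18 and Wt1. Meox1 stood at the level of Aldh1a2 in Wtap-CKO and at the level of Tcf21 in Wtap-flox. The genes nearest in profile to the mean of the 4 tested epicardial genes, by root mean square distance of centred log2 values over the 6 libraries, were Cmtm7, B3gnt9, F8a, Irx5 and Rrad (0.0604 to 0.0649). For the 4 fibroblast lineage genes they were Cog2, Rmnd5b, Mycbp2, Bap1 and Epb41l2 (0.0204 to 0.0321), whose log2 fold changes lay between 0.01 and 0.08, as the rise of Meox1 and the fall of Dpt offset each other in that mean.

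Of 25 other genes listed for cardiac fibroblasts, 21 were tested, of which 2 rose and 1 fell, with a median of -0.05. These are 9.52% and 4.76% of the list, near the 9.91% and 6.69% of all tested genes. Fbln2, a matrix glycoprotein gene, rose to 62.2 ± 11.0 FPKM in Wtap-CKO, against 32.7 ± 1.69 FPKM in Wtap-flox (SD, n = 3; log2 fold change 0.89, adjusted p = 0.00639, limma). Pcolce, which encodes an enhancer of procollagen processing, rose by 0.73 (adjusted p = 0.011). Islr, a leucine-rich repeat gene of mesenchymal cells, fell to 6.75 ± 0.264 FPKM in Wtap-CKO, against 11.65 ± 1.31 FPKM in Wtap-flox (log2 fold change -0.70, adjusted p = 0.00585). The elastic fibre gene Mfap4 had 0.49 (adjusted p = 0.0516). The collagen receptor gene Ddr2, at 4.41 ± 0.468 and 4.56 ± 0.521 FPKM, and the intermediate filament gene Vim had -0.04 and 0.07 and did not pass. A second gene fell without Wtap-CKO 1 (Osr1) and without Wtap-CKO 2 or Wtap-flox 3 (Col15a1). Ddr2, Vim, Osr1 and Col15a1 are named outside the naming rule, after their values were seen.

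Among genes listed for the activation of fibroblasts, 4 of 11 tested genes rose and 0 fell, with a median of 0.52. These are 36.4% and 0%, against 9.91% and 6.69% of all tested genes. In that list 3 more genes were too low to test. Among these, the fibroblast activation protein gene Fap, was at 0.722, 0.686 and 0.481 FPKM in Wtap-CKO and at 1.49, 1.01 and 1.31 FPKM in Wtap-flox, lower in every Wtap-CKO library, with a mean just under 1 FPKM. Fap is named after its values were seen. Ckap4, which encodes a membrane protein of the endoplasmic reticulum, was at 124.5 ± 16.3 FPKM in Wtap-CKO and at 56.6 ± 10.45 FPKM in Wtap-flox (SD, n = 3; log2 fold change 1.13, adjusted p = 0.00405, limma). The enzymes that cross-link collagen, Lox (1.205, adjusted p = 0.0188) and Loxl2 (0.71, adjusted p = 0.0075), and the latent TGF-beta binding protein gene Ltbp2 (0.71, adjusted p = 0.0346) also rose. Postn, the matricellular gene most used to mark activated fibroblasts, was at 106.5 ± 16.8 FPKM in Wtap-CKO and at 111 ± 2.43 FPKM in Wtap-flox (log2 fold change -0.07, adjusted p = 0.793). Without Wtap-CKO 2, Wtap-flox 1 or Wtap-flox 3, 2 of these genes rose in place of 4, Lox and Ltbp2 being the ones lost. Ltbp2 was also lost without Wtap-CKO 1 or Wtap-flox 2 and under TPM scaling.

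Of 17 tested genes listed for the epicardial transition, 4 rose and 1 fell, with a median of -0.00. These are 23.5% and 5.88%, against 9.91% and 6.69% of all tested genes. Tgfb2, a TGF-beta ligand that drives the transition, was at 23.9, 27.4 and 20.2 FPKM in Wtap-CKO hearts and at 5.22, 6.07 and 5.19 FPKM in Wtap-flox hearts (log2 fold change 1.93, adjusted p = 0.000204, limma). The homeobox gene Prrx2 (1.52, adjusted p = 0.0021), the basic helix-loop-helix gene Hand2 (0.66, adjusted p = 0.00861) and the repressor Snai1 (0.83, adjusted p = 0.00869) rose. The related repressor Snai2 fell to 3.32 ± 0.279 FPKM in Wtap-CKO, against 5.58 ± 0.723 FPKM in Wtap-flox (log2 fold change -0.60, adjusted p = 0.013). Snai1 and Snai2 thus moved in opposite directions, each without overlap between the groups.

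Around Aldh1a2, 3 of 11 tested genes of retinoic acid metabolism and response rose and 2 fell, with a median of -0.17. These are 27.3% and 18.2%, against 9.91% and 6.69% of all tested genes. Besides Aldh1a1, the receptor gene Rara rose by 0.47 (adjusted p = 0.0295, limma). Rara is named outside the naming rule. The receptor gene Rxrg fell to 0.216, 0.395 and 0.469 FPKM in Wtap-CKO, against 3.55, 3.53 and 3.71 FPKM in Wtap-flox (log2 fold change -1.76, adjusted p = 0.000207, limma), and reached the mean of 1 FPKM through its Wtap-flox values. Hic1, a repressor that marks mesenchymal progenitors, fell by 0.60 (adjusted p = 0.0096). Without Wtap-flox 1 or Wtap-flox 2, 1 gene rose in place of 3. Rara also missed the threshold without Wtap-CKO 2 or Wtap-flox 3 and under TPM scaling.

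Around Pdgfra, 1 of the 5 other PDGF ligands and receptors rose and 0 fell, with a median of -0.04. The shares were 20% and 0%, against 9.91% and 6.69% of all tested genes. The gene that rose was Pdgfc. This ligand of the receptor rose to 2.97, 2.58 and 1.95 FPKM in Wtap-CKO, against 0.440, 0.593 and 0.410 FPKM in Wtap-flox (log2 fold change 1.23, adjusted p = 0.00156, limma), and reached the mean of 1 FPKM through its Wtap-CKO values. Pdgfd had 0.40 (adjusted p = 0.155), and passed without Wtap-CKO 3 (0.60, adjusted p = 0.019), giving 2 genes that rose. Pdgfrb, the receptor of mural cells, and the ligands Pdgfa and Pdgfb had -0.19, -0.04 and -0.19 and did not pass.

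**Figure D4:**
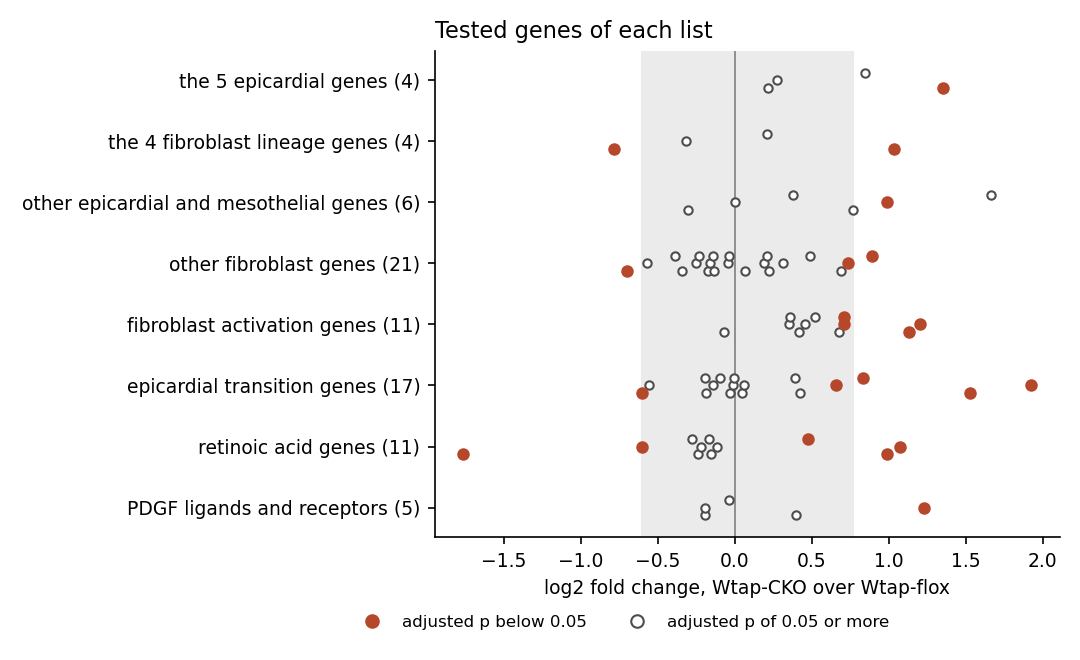
Log2 fold change of every tested gene of each list, Wtap-CKO over Wtap-flox, with the number tested in brackets; filled points had an adjusted p below 0.05 and the grey band holds the middle 90% of all tested genes. The fibroblast lists have called genes on both sides of 0, and in the list of fibroblast activation the 4 called genes lie above 0.

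Markers of other cell types were read in the same libraries. Among all tested genes 9.91% rose and 6.69% fell. The summed FPKM of 9 macrophage markers was 55.3 to 88.7 in Wtap-CKO and 38.7 to 43.3 in Wtap-flox, and 3 of 8 tested (37.5%) rose. Without C1qa, the most abundant, the macrophage sum was 41.9 to 63.7 in Wtap-CKO and 28.9 to 31.6 in Wtap-flox. Of 9 smooth muscle and pericyte markers, 4 (44.4%) rose and 1 (11.1%) fell, with a median log2 fold change of -0.11. Their sum was 769 to 873 in Wtap-CKO and 574 to 626 in Wtap-flox. Most of that sum was Des, an intermediate filament gene that cardiomyocytes also express, and without it the sums overlapped, at 228 to 247.5 in Wtap-CKO and 231 to 275 in Wtap-flox. Of 10 endothelial markers, 2 (20%) rose and 1 (10%) fell, with 5 of 10 log2 fold changes positive and a median of 0.04. Their sum was 409 to 431 in Wtap-CKO and 360 to 375 in Wtap-flox. Without the tight junction gene Cldn5 these sums overlapped as well, at 290.0 to 310.1 in Wtap-CKO and 295.5 to 323 in Wtap-flox. The sums without the most abundant gene were added after the data were seen. Of these calls, those of Abcc9, which fell, and of Cldn5 and Emcn, which rose, held whichever library was left out. These genes are named after their values were seen. Each of the other calls was lost without at least 1 library. None of these 3 lists had a marker at 0 in all libraries. Their part in the results on Tbx18, Krt19, Meox1 and Dpt was not tested. Of 10 cardiomyocyte markers, 0 rose and 1 (10%) fell, a call lost without at least 1 library. Their median log2 fold change was -0.15. The sums of these markers (19340 to 24660 in Wtap-CKO, 18220 to 22120 in Wtap-flox) and of 7 red cell markers overlapped between the groups. Markers of lung summed to at most 0.232 FPKM in Wtap-CKO and 0.441 in Wtap-flox, with Sftpd and Nkx2-1 at 0 in every library, and those of thymus to at most 0.125 and 0.252, with Rag2 at 0. Fat markers summed to 17.2 to 26.1 FPKM in Wtap-CKO and 15.3 to 17.3 FPKM in Wtap-flox, with Adipoq at 0 in every library. Nearly all of that was Cidea, and no other fat marker exceeded 0.0557 FPKM. Those of Schwann cells and glia overlapped between the groups.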

How the data were processed

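RNA of 6 whole hearts, 3 Wtap-CKO and 3 Wtap-flox, was sequenced. The authors deposited FPKM per gene. The values fit reads scaled by the listed gene length and by a library size proportional to the median-ratio size factor, not to the library's total. The submitters' processing notes name CASAVA, HISAT2 2.0.5, featureCounts 1.5.0-p3, DESeq2 1.20.0 and the build GRCm39. However, 94.8% of protein coding genes matched by symbol had their start or their end within 1000 bases of that in GRCm38.p6. Of those matched by gene identifier to GRCm39, 3.30% did. The sources used here do not give strandedness or the Cre driver. All value columns were used. Values were whole multiples of what 1 read is worth (100% within 0.01), which gave the reads per gene. FPKM is not a count, so the main test was not a count test.

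Values were tested as log2(FPKM + 1) with limma 3.58.1 (trend and robust moderation, R 4.3.3) over genes averaging 1 FPKM or more, with Benjamini-Hochberg adjustment and a threshold of 0.05. The procedure was tested on simulated data. Exact two-sided permutation tests used scipy 1.17.1 on FPKM. The floor of 3 reads covers counting error only. Alternatives were other pseudocounts, filters, scalings and moderation, array weights, limma-voom on recovered reads, the replicate block, and leaving out each library. The genes and lists were chosen with earlier results of these data known, and all 173 listed symbols were found. The text names the 9 genes, up to 4 genes per related list with the smallest adjusted p and the best in the opposite direction, the nearest profiles, overlapping genes and markers at 0, and 1 gene of these lists is not reported here. Promoters came from RefSeq (GRCm38.p6) and transcripts from GENCODE vM39.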

Additional observations from a re-analysis of the deposited data

How the results depend on the processing

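No log2 fold change of the 8 tested genes changed sign under any alternative. Krt19 and Meox1 rose under every alternative that tested them, and Krt19 was not tested at a mean of at least 5 FPKM. Of the 9 genes, 0 fell in place of 1 without a filter or with genes averaging 0.1 FPKM or more, and 0 to 1 when a library was left out. The other epicardial genes that rose numbered 3 in place of 1 with array weights, 2 with limma-voom, at a mean of at least 0.1 FPKM, without robust moderation or without a variance trend, and 1 to 3 when a library was left out. Of the other fibroblast genes, 4 in place of 2 rose with array weights. Of that list, 3 in place of 1 fell with TPM scaling, array weights or limma-voom, 2 with quantile normalization, and 1 to 2 when a library was left out. Of the activation genes, 2 in place of 4 rose without a filter and 2 to 5 when a library was left out, and 1 in place of 0 fell with TPM scaling. Of the transition genes, 2 in place of 4 rose and 0 in place of 1 fell at a mean of at least 5 FPKM. Of the retinoic acid genes, 1 in place of 3 rose without a filter, 1 in place of 2 fell at a mean of at least 5 FPKM, and 1 to 2 rose when a library was left out. Of the PDGF genes, 2 in place of 1 rose with array weights, 0 at a mean of at least 5 FPKM, and 1 to 2 when a library was left out. Fewer genes are tested at a mean of at least 5 FPKM; the cause of the other shifts was not tested.

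Over all genes, 1245 were higher and 841 lower; the replicate block gave 1048 and 625, TPM scaling 820 and 1614, limma-voom on recovered reads 1474 and 1063, array weights 2056 and 1676, and no filter 723 and 483. Deviations of same-numbered libraries correlated at -0.216, -0.0752 and -0.0764, and those of differently numbered ones at -0.138 to 0.264. With 3 libraries per group these values cannot decide whether the numbers pair the hearts. With the replicate block 2 of the 9 genes rose and 1 fell, as without it, and Dpt had an adjusted p of 0.0494 (limma). The block ended the call of Rara (adjusted p = 0.0537, limma) and left 2 retinoic acid genes that rose in place of 3. Without a filter its adjusted p was 0.0724. Upk3b was limited by depth.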
